A study of Mus musculus with 4 samples.

Results

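Keratins are the intermediate filament proteins of epithelial cells, and the genes studied here are the 47 listed genes whose symbol is Krt followed by a number and nothing else, out of 22558 listed genes in whole mouse eyes. Of these 47 keratins, 18 reached a mean of 1 FPKM over the 4 samples, as did 14194 genes in all. FPKM values are mapped fragments scaled to the length of the transcript and to sequencing depth. All samples came from 6-week-old Abca4-/-Rdh8-/- mice, which lack the photoreceptor flippase Abca4 and the retinol dehydrogenase Rdh8 and are studied as a model of retinal damage by light. The groups were a control without light exposure and eyes collected 3 h, 24 h and 7 days after light exposure, each labelled as whole eyes of 3 mice. The study asked which transcripts change after light. Each condition has a single deposited value per gene, so no difference below has a replicate check and no test was run. The control group carries the same 2 deletions as the light groups, and eyes of wild-type mice were not analysed here.

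Keratins work in pairs. A type I (acidic) keratin and a type II (basic) keratin assemble into one filament, which is anchored to desmosomes and hemidesmosomes and lets an epithelium withstand shear. The pair made changes with the kind of epithelium. Krt5 and Krt14 mark basal cells of stratified epithelia, and Krt15 is a further basal type I keratin. Krt12 is the type I keratin of the corneal epithelium. Krt4 and Krt13 form the pair of mucosal epithelia such as the conjunctiva. Krt8 and Krt18 form the pair of simple epithelia, and Krt6, Krt16 and Krt17 are the keratins of wounded or fast-dividing epithelium.

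Keratin genes resemble each other closely, which bears on the values below because fragments from identical stretches cannot be placed on 1 gene. The coding sequences of Krt14, Krt16 and Krt17 are shown because each of these genes had its highest value in the 3 h sample. This is not particular to them. Krt12, Krt15, Krt13, Krt4, Krt18, Krt19, Krt7 and Krt23 were also highest there. In the RefSeq annotation of GRCm38 the genes shown are direct protein-coding neighbours in the order Krt14, Krt16, Krt17. The window of 90 coding bases with the fewest differences is given from the GENCODE M21 transcripts, written 5′ to 3′, with capitals for bases that differ from Krt14. It starts at coding base 349 of Krt14, 325 of Krt16 and 238 of Krt17.
Krt14: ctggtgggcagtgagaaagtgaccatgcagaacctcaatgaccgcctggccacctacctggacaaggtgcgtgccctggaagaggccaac
Krt16: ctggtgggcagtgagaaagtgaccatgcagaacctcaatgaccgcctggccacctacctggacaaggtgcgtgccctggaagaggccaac
Krt17: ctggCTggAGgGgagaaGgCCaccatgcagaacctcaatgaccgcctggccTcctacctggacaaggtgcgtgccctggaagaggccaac

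Krt14 and Krt16 did not differ at any base of this window, and Krt17 differed from Krt14 at 9 of the 90 bases. The last 60 coding bases of the same genes, shown to mark where they can be told apart, are written without capitals.
Krt14: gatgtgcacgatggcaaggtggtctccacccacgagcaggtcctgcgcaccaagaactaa
Krt16: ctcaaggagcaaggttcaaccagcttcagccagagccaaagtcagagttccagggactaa
Krt17: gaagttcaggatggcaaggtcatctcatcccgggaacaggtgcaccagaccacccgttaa

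Over the whole aligned coding sequence, Krt14 was 86.2% identical to Krt16 and 82.9% to Krt17, and 71.8% identical to Krt15. Each coding sequence was cut into all windows of 50 bases, and windows found in a transcript of another gene were counted. Such windows made up 41.8% of Krt16, 36.1% of Krt8, 16.8% of Krt14, 10.8% of Krt5 and 4.79% of Krt17. They made up less than 1% of each of the other 13 keratins with a mean of at least 1 FPKM, among them Krt12, Krt13, Krt4 and Krt19 with none. Krt8 shared its windows with the pseudogene Krt8-ps. The closest copy of Krt16 was not Krt14 but Gm11597, which held 28.1% of the Krt16 windows. Krt16 was the closest copy of Krt14 and held 13.3% of the Krt14 windows. How the authors' counting divided fragments between such copies is not stated in the sources used here, so the values of Krt16 and Krt8, and to a lesser degree Krt14, are uncertain.

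The labelled tissue was checked against defining transcripts. The corneal epithelium was represented by Krt12, by the corneal aldehyde dehydrogenase Aldh3a1 (1250.5 to 1637 FPKM) and by the secreted protein Slurp1 (445 to 640.2 FPKM). The lens crystallin Cryaa (23585 to 27439 FPKM) and the rod transducin gene Gnat1 (1581 to 2679 FPKM) were present in every sample. Among markers of eyelid skin and hair, the cornified envelope gene Lor was at no more than 0.534 FPKM and the hair follicle gene Tchh at no more than 0.422 FPKM. Krt71 and Krt25 were at no more than 0.0482 and 0.0456 FPKM. The epidermal keratins of the same marker set were higher, Krt10 at 2.64 to 3.24 FPKM and Krt1 at 0.805 to 1.77 FPKM. Of the 16 genes listed for eyelid skin, hair follicle and eyelid glands, 5 had a mean of at least 1 FPKM, the highest being the glutathione transferase gene Mgst1 at 60.6 to 74.6 FPKM. Of 51 listed keratin-associated protein genes, which encode the matrix of hair, 39 were at 0 in every sample and the highest value was 0.298 FPKM. The conjunctival goblet cell mucin Muc5ac was between 0.167 and 0.613 FPKM. The other conjunctival markers were higher, with Muc4 at 6.65 to 7.66 FPKM, Krt13 at 169 to 224 FPKM and Krt4 at 50.9 to 70.2 FPKM. In whole-eye RNA, fewer cells of a type and less RNA per cell cannot be told apart.

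**Figure D1:**
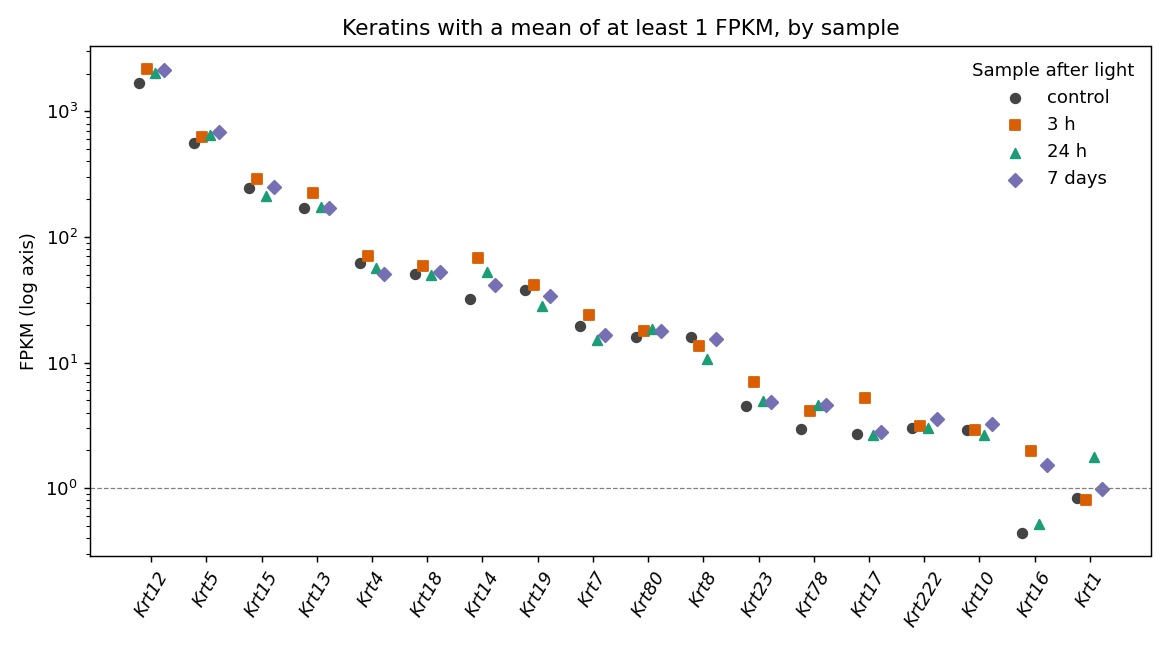
FPKM on a log axis for the 18 keratins with a mean of at least 1 FPKM, ordered by mean, with 1 point per sample and a dashed line at 1 FPKM. Krt12 stands above 1680 FPKM in every sample, and Krt16 and Krt1 lie on both sides of the line.

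Levels spanned more than 3 orders of magnitude. Krt12 was the most abundant keratin by far and ranked 32nd of all listed genes by mean. Its level was 1680.15 FPKM without light, 2171 after 3 h, 2029 after 24 h and 2151 after 7 days. The control was the lowest sample, and the light samples lay close together. The next were the basal keratins. Krt5 was at 562 FPKM without light, 622 after 3 h, 652 after 24 h and 692 after 7 days, an order that followed time. Krt15 was at 245 FPKM without light, 289.95 after 3 h, 210.2 after 24 h and 248 after 7 days, highest at 3 h and lowest at 24 h.

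Krt14 was much less abundant than its partner Krt5. It was listed at 32.3 FPKM without light, 68.6 after 3 h, 52.7 after 24 h and 41.7 after 7 days. All light samples were above the control, and the level was highest at 3 h and lower at each later time. The ratio to the control was 2.12 after 3 h, 1.63 after 24 h and 1.29 after 7 days. An approximate depth, read from olfactory receptor genes seen in a single sample and scaled to transcript length, put between 1306 and 2949 fragments behind each Krt14 value. That gives a counting error of 1.84% to 2.77%, and the spread between animals is not part of it.

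The wound keratins Krt16 and Krt17 were low. Krt16 was at 0.442 FPKM without light, 1.97 after 3 h, 0.515 after 24 h and 1.52 after 7 days. The 3 h and 7-day samples were high and the control and 24 h were low, so the level did not follow the time after light. About 16.5, 70.2, 24.3 and 98.8 fragments lay behind these values, with counting errors of 24.6%, 11.9%, 20.3% and 10.1%. Krt16 passed the mean of 1 FPKM only through the 3 h and 7-day samples. Krt17 was at 2.67 FPKM without light, 5.23 after 3 h, 2.66 after 24 h and 2.81 after 7 days, so that the 3 h sample alone stood out, at 1.96 times the control. Its counting error was 7.36% at 3 h and 10.1% in the control.

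Krt6a and Krt6b, the type II partners of Krt16 and Krt17, carry a letter in their symbols and are not among the 47. Krt6a was at 161 FPKM without light, 219.99 after 3 h, 183 after 24 h and 195 after 7 days, and Krt6b was at 137, 178, 154 and 144 FPKM. Both were highest at 3 h, at log2 changes of 0.44 and 0.37. Their coding sequences were 97.8% identical and shared 68.4% and 67.8% of 50-base windows with other genes, so their separate values are uncertain. Both were far more abundant than Krt16 in every sample.

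The mucosal pair showed its highest level at 3 h. Krt13 was at 169 FPKM without light, 224 after 3 h, 172 after 24 h and 169.6 after 7 days, so the 3 h sample stood apart from the others, which lay close together. Its type II partner Krt4 was at 61.8 FPKM without light, 70.2 after 3 h, 56.3 after 24 h and 50.9 after 7 days. Krt19, the small keratin of conjunctival, limbal and many simple epithelia, was at 37.7 FPKM without light, 41.5 after 3 h, 28.2 after 24 h and 33.7 after 7 days. Krt4 and Krt19 were thus highest at 3 h as well, and both lay under the control at 24 h and 7 days.

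The simple epithelial keratins did not move as 1 group. Krt18 was at 51.1 FPKM without light, 58.8 after 3 h, 49.5 after 24 h and 52.9 after 7 days, and stayed within 1.19-fold over the samples. Its partner Krt8 was at 16.0 FPKM without light, 13.5 after 3 h, 10.6 after 24 h and 15.3 after 7 days, lowest at 24 h. Krt7, a further type II keratin of simple and glandular epithelia, was at 19.5 FPKM without light, 23.95 after 3 h, 15.001 after 24 h and 16.5 after 7 days. The 24 h sample was the lowest for all of Krt7, Krt8, Krt18, Krt15 and Krt19. Krt23 was at 4.47 FPKM without light, 7.00 after 3 h, 4.97 after 24 h and 4.89 after 7 days, and again the 3 h sample stood above the others.

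Keratins of epidermis and of upper cell layers were low or little changed. Krt80, a type II keratin found in many epithelia, was at 15.9 FPKM without light, 17.8 after 3 h, 18.4 after 24 h and 17.9 after 7 days. Krt78 was at 2.97 FPKM in the control and at 4.12, 4.60 and 4.58 FPKM in the later samples, so all light samples were above the control. Krt10, the type I keratin of the epidermis above the basal layer, lay between 2.64 and 3.24 FPKM. Its epidermal partner Krt1 was at 0.831 FPKM without light, 0.805 after 3 h, 1.77 after 24 h and 0.986 after 7 days, high at 24 h alone. Krt1 passed the mean of 1 FPKM only through that sample, and its counting errors ran from 8.73% to 14.9%. The keratin-like gene Krt222 lay between 2.99 and 3.55 FPKM.

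The remaining 29 keratins stayed below 1 FPKM in every sample. Closest to the limit was Krt75, a hair follicle keratin, at 0.937 FPKM without light, 0.677 after 3 h, 0.716 after 24 h and 0.765 after 7 days. Just inside the limit were Krt1 and Krt16, with means of 1.10 and 1.11 FPKM. The second highest of the 29 was Krt24, at 0.158, 0.0797, 0.433 and 0.126 FPKM, and no other of the 29 exceeded that 24 h value apart from Krt75. Of the 29, 11 were above 0 in every sample, 13 were at 0 in some samples, and 5 were listed at 0 in all (Krt31, Krt35, Krt39, Krt73 and Krt82, most of them keratins of the hair shaft). None of the 22 members grouped as hair and inner root sheath keratins, a group that also held Krt24, reached a mean of 1 FPKM.

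Changes are differences of log2 (FPKM + 1) between a pair of samples, which makes the change of a low gene look smaller than its plain ratio. The limit for calling a gene higher or lower was 1 log2 unit. At 3 h, 2 of the 18 keratins were higher than in the control, Krt14 at 1.06 and Krt16 at 1.04, and none was lower. Over all 14194 genes with a mean of at least 1 FPKM, 0.55% were higher and 0.24% lower by this rule. Krt16 passed the filter only through the samples where it was high, among them the 3 h sample itself. On the log2 (FPKM + 1) scale Krt14 and Krt16 lay just past the limit. By plain ratio Krt14 was at 2.12 times the control, and Krt16, at 0.442 FPKM in the control, was at 4.47 times. On the same log2 (FPKM + 1) scale, neither was past the limit relative to other epithelial genes. The relative values were 0.96 and 0.94 against the adhesion genes described further on, and 0.92 and 0.90 against corneal and limbal genes. Next in order of log2 change were Krt17 (0.76) and Krt23 (0.55). Of the 18 keratins, 16 were above 0, against 54.1% of all genes, and their median was 0.22, against 0.02 for all genes. Without the filter the median was 0.0052 over the 42 keratins above 0 in any sample, most of them very low. Krt8 (-0.22) and Krt1 (-0.02) were the members below 0.

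At 24 h none of the 18 keratins was past the limit in either direction, where 0.747% of all genes were higher and 0.359% lower. The median of the 18 was 0.01, with 10 above 0 and 8 below, and the median of all genes was also 0.01. The keratin median turned to -0.00047 or -0.031 when the samples were rescaled. Krt14 had the highest log2 change (0.69), followed by Krt1 (0.60) and Krt78 (0.49). The lowest were Krt8 (-0.55), Krt19 (-0.40) and Krt7 (-0.36). Krt12 was at 0.27 and Krt5 at 0.21, whereas the basal keratin Krt15 was at -0.22. As a plain FPKM ratio, Krt1 was at 2.13 times the control, and with a limit set on plain ratios of 2 it was the 1 keratin called higher at 24 h, where that rule called 0.913% of the filtered genes above 0 in both samples. Krt1 passed the filter only through that same sample.

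At 7 days no keratin was past the limit either, against 0.409% of all genes higher and 0.19% lower. The median was 0.11, with 14 of 18 above 0, and that of all genes was 0.00. It was 0.033 over the 12 keratins with a mean of at least 5 FPKM and 0.0071 without a filter. Krt16 had the highest value (0.80), followed by Krt78 (0.49), Krt14 (0.36) and Krt12 (0.36). The plain ratio of Krt16 to the control was 3.43, so that a limit of 2 on plain ratios called it, as it did 0.453% of the filtered genes above 0 in both samples. Krt16 passed the filter only through the samples where it was high. The lowest were Krt4 (-0.28), Krt7 (-0.23) and Krt19 (-0.16). Y-linked transcripts stood out in the 7-day sample alone (Ddx3y at 6.59 FPKM, against no more than 0.0053 in the other samples), and so sex and time after light cannot be told apart in its comparisons.

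**Figure D2:**
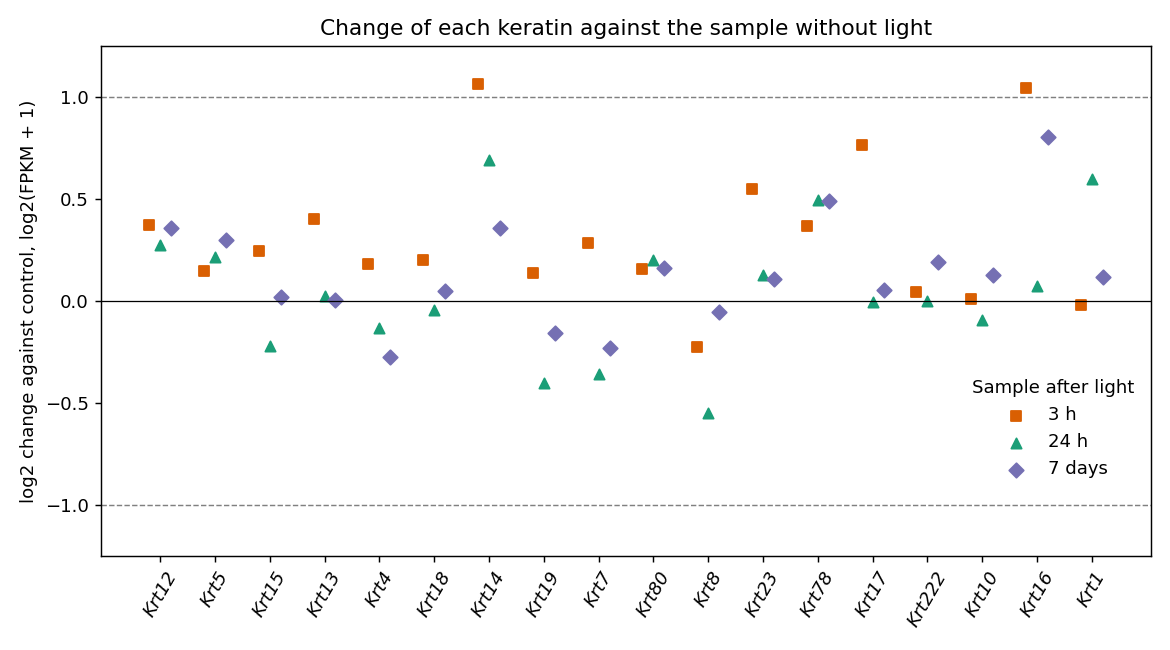
Log2 change of (FPKM + 1) against the control for the 18 keratins, ordered by mean level, with 1 point for each light sample and dashed lines at the limits of 1 and -1. Krt14 and Krt16 at 3 h are the only points past a limit, and Krt8 at 24 h is the lowest point.

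The light samples were also compared with one another, which leaves out the control. From 3 h to 24 h, 14 of the 18 keratins were lower and the median was -0.32, against -0.01 for all genes. None was past the limit, where 0.514% of all genes were higher and 0.437% lower. By plain ratio, Krt16 was at 0.261 of its 3 h level at 24 h and Krt1 at 2.198 times its own. The log2 values furthest below 0 were those of Krt16 (-0.97), Krt17 (-0.77), Krt7 (-0.64) and Krt19 (-0.54). The 4 keratins above 0 were Krt1 (0.62), Krt78 (0.13), Krt5 (0.07) and Krt80 (0.04). From 24 h to 7 days the median was 0.08, with 11 of 18 above 0 and none past the limit, where the background was 0.296% of all genes higher and 0.514% lower. Krt16 (0.73) and Krt8 (0.50) were the highest and Krt1 (-0.48) and Krt14 (-0.33) the lowest.

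Ratios and shares among the keratins of 1 sample, unlike their sum, do not depend on how samples were scaled. The 47 keratins summed to 2910 FPKM without light, 3628 after 3 h, 3316 after 24 h and 3512 after 7 days, which was 0.464%, 0.533%, 0.502% and 0.523% of all FPKM. Krt12 made up 57.7% of the keratin sum without light, 59.8% after 3 h, 61.2% after 24 h and 61.2% after 7 days, and Krt12, Krt5 and Krt15 together made up 85.0% to 88.0%. Type I keratins exceeded type II keratins by 3.28-fold without light, 3.81-fold after 3 h, 3.37-fold after 24 h and 3.40-fold after 7 days. With Krt6a and Krt6b added to type II, these ratios were 2.28, 2.50, 2.33 and 2.39. The excess of type I was thus highest at 3 h in both forms.

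Within the basal layer, the balance of Krt14 and Krt15 differed between samples. Krt14 stood at 0.0575 of the Krt5 level without light, 0.110 after 3 h, 0.0809 after 24 h and 0.0603 after 7 days. Krt15 stood at 0.436 of Krt5 without light, 0.466 after 3 h, 0.322 after 24 h and 0.358 after 7 days. The Krt15 level was 7.57 times that of Krt14 without light, 4.22 times after 3 h, 3.99 times after 24 h and 5.95 times after 7 days, so all light samples were below the control in this ratio. Krt16 was at 0.0137, 0.0288, 0.0098 and 0.0364 of Krt14 in the same order, and Krt17 at 0.0827, 0.0763, 0.0505 and 0.0674.

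The corneal, mucosal and simple pairs also differed between samples. Krt12 stood at 2.99 times Krt5 without light, 3.49 after 3 h, 3.11 after 24 h and 3.11 after 7 days. Krt13 was 2.73 to 3.33 times Krt4, lowest in the control and highest at 7 days. Krt18 was 3.20 times Krt8 without light, 4.34 times after 3 h, 4.67 times after 24 h and 3.45 times after 7 days, so this pair was furthest apart at 24 h.

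**Figure D3:**
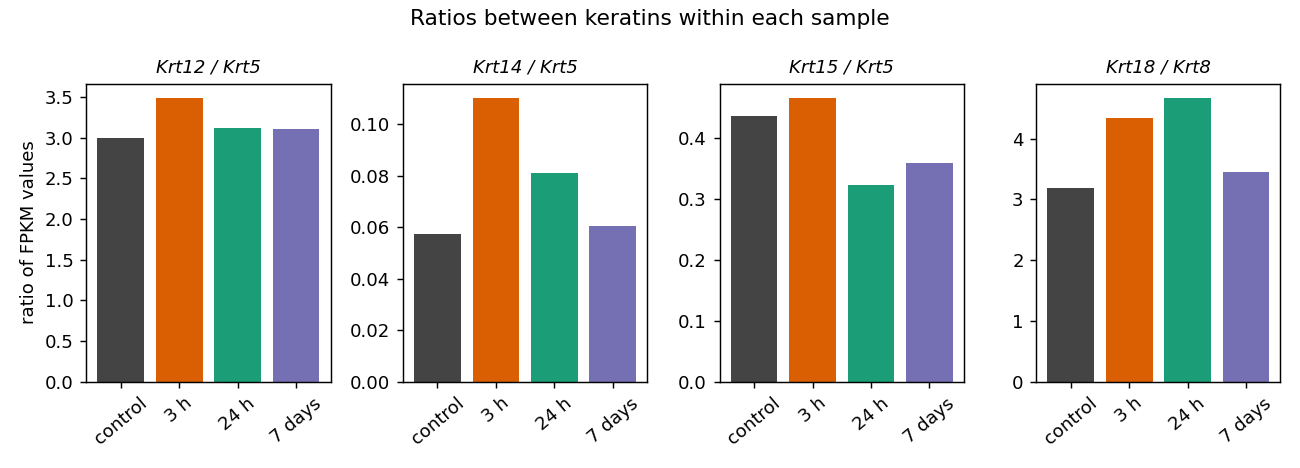
Ratios of FPKM values between 2 keratins of the same sample, with bars from 0 and 1 bar per sample, for Krt12 over Krt5, Krt14 over Krt5, Krt15 over Krt5 and Krt18 over Krt8. The Krt14 to Krt5 ratio is 0.0575 in the control and 0.110 at 3 h, whereas the Krt12 to Krt5 ratio stays between 2.99 and 3.49.

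Genes that serve the same epithelia were set beside the keratins. None of the 24 genes of desmosomes, hemidesmosomes and basement adhesion was past the limit in any comparison with the control. Over all filtered genes, 0.55%, 0.747% and 0.409% were higher at 3 h, 24 h and 7 days, and 0.24%, 0.359% and 0.19% lower. A count of 0 among 24 genes is near these shares. The medians of the 24 genes were 0.09 at 3 h, 0.05 at 24 h and 0.09 at 7 days. Above 0 were 19, 16 and 21 of them, against 54.1%, 51.3% and 50.7% of all genes. The desmosomal plaque protein gene Dsp was at 34.0 FPKM in the control and 41.6 at 3 h, and the desmosome-associated p53 target Perp at 202 and 269 FPKM. The hemidesmosomal collagen gene Col17a1 was at 41.5 and 45.9 FPKM, and the integrin gene Itgb4 at 6.71 and 6.18 FPKM.

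Of 29 genes of corneal and limbal epithelium, 28 had a mean of at least 1 FPKM and none was past the limit against the control. That count is again near the low shares of all genes given above. The medians of the 28 genes were 0.14, 0.09 and 0.16 at 3 h, 24 h and 7 days. Above 0 were 23, 22 and 24 of them, against 54.1%, 51.3% and 50.7% of all genes. Slurp1 was at 0.38, 0.52 and 0.45 on the log2 scale, the water channel gene Aqp5 at 0.45, 0.31 and 0.36, and Aldh3a1 at 0.32, 0.39 and 0.35. Trp63, the transcription factor of basal epithelial cells, was at 8.15 FPKM without light, 8.91 after 3 h, 8.28 after 24 h and 9.26 after 7 days. The most abundant member of the list, the fatty acid binding protein gene Fabp5, was at 2006, 1911, 2095 and 2274 FPKM in the same order, lowest at 3 h. Krt12 changes at 3 h, 24 h and 7 days were 0.37, 0.27 and 0.36.

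Relative to the mean log2 level of the 24 adhesion genes, Krt14 was higher than in the control by 0.96 after 3 h, 0.63 after 24 h and 0.24 after 7 days, and Krt16 by 0.94, 0.01 and 0.69. Krt17 differed by 0.66, -0.07 and -0.06 and Krt5 by 0.04, 0.15 and 0.19. No keratin was past the limit on this relative scale, on which Krt14 and Krt16 were just short of it. The scale also uses log2 (FPKM + 1), which makes the change of a low gene such as Krt16 look smaller. The 18 keratins had a relative median of 0.11 at 3 h, -0.05 at 24 h and -0.00080 at 7 days.

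Of 24 listed genes of squamous differentiation, 8 passed the filter. At 3 h, 7 of these were above 0, against 54.1% of all genes, with a median of 0.36. The serpin gene Serpinb3a was at 6.25 FPKM in the control and 11.1 at 3 h, Sbsn at 1.68 and 3.42 FPKM, and the calmodulin-like gene Calml3, which is abundant in stratified epithelia, at 370.3 and 502.3 FPKM. None of the 8 was past the limit against the control, a count near the low shares of all genes given above. Among those below the filter, Cdsn was at 0.236 FPKM in the control and 1.69 at 24 h, a log2 change of 1.12. Tgm3, also below the filter, was at 0.542 and 0.0912 FPKM in these samples. The medians of the 8 were 0.09 at 24 h and 0.09 at 7 days. The 4 mucin and goblet genes that passed had medians of 0.10, 0.05 and 0.10, and the 5 genes of eyelid skin, hair follicle and eyelid glands that passed had medians of 0.08, 0.13 and 0.03.

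The other intermediate filament and plakin genes had medians of -0.08 at 3 h, -0.07 at 24 h and -0.06 at 7 days over 20 genes. At 3 h none was past the limit, where 0.55% of all genes were higher and 0.24% lower. Above 0 were 7 of 20, against 16 of 18 keratins and 54.1% of all genes. At 24 h Gfap, the filament of reactive glia (2.28), and Prph, peripherin of neurons (1.34), were higher. Prph passed the filter only through that same sample, at 4.15 FPKM against 1.03 in the control. Des, the muscle filament, was at -0.63 and Vim, vimentin, at 0.49. By the same rule no keratin reached the limit at 24 h, where only 0.747% of all genes were higher and 0.359% lower. By plain ratio Krt1 was at 2.13 times the control in that sample.

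**Figure D4:**
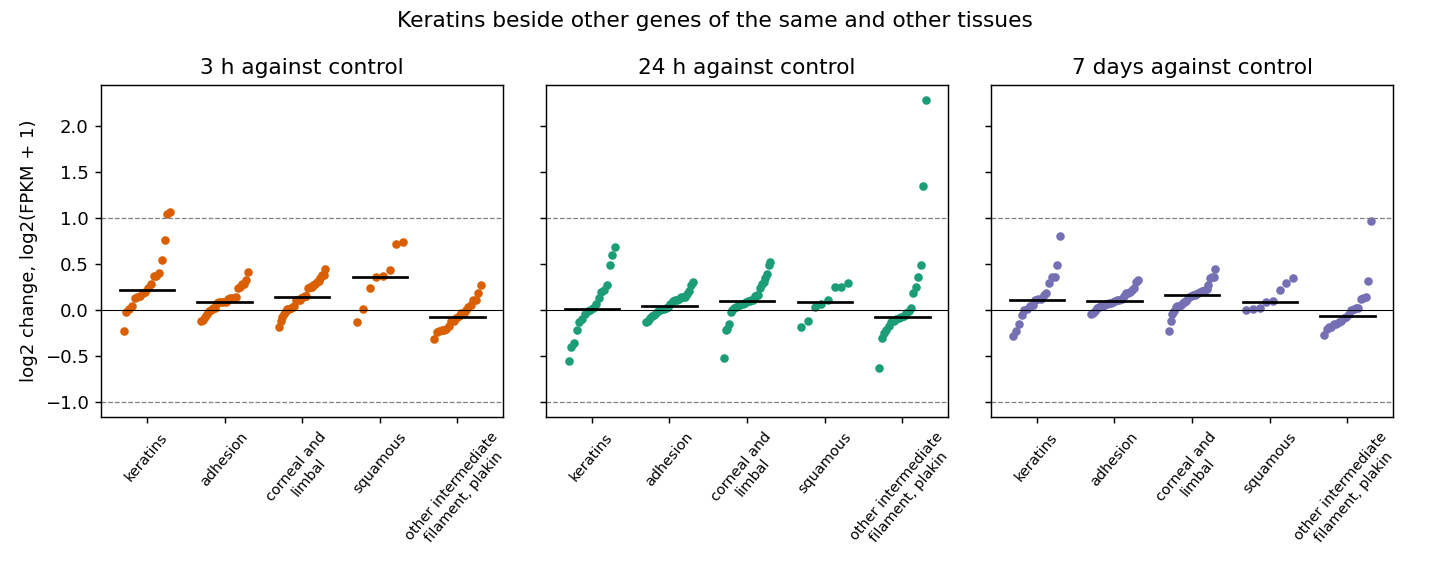
Log2 change of (FPKM + 1) against the control at 3 h, 24 h and 7 days, with 1 point per gene with a mean of at least 1 FPKM, for keratins and 4 gene lists, black bars at the medians and dashed lines at 1 and -1. The keratin median is 0.22 at 3 h and 0.01 at 24 h, and the largest values at 24 h belong to the other intermediate filament genes. These are Gfap and Prph, and Prph passed the filter only through the 24 h sample.

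Other tissue shares differed between the samples, and their part in the keratin values was not tested. The lens list took 14.5% of all FPKM at 3 h and 16.3% to 16.7% in the other samples. Small RNA genes took 12.7% without light, 18.1% after 3 h, 13.7% after 24 h and 15.6% after 7 days. Skeletal muscle genes took 0.339%, 0.339%, 0.213% and 0.275% in the same order, and the rod photoreceptor list 2.54%, 2.02%, 1.53% and 1.62%. The pigment epithelium list, which also holds Krt8 and Krt18, had medians of 0.06 at 3 h, -0.05 at 24 h and 0.10 at 7 days over 10 genes. Among neutrophil genes, S100a8, a calprotectin gene that wounded epithelium also makes, was at 1.14 FPKM without light, 0.802 after 3 h, 2.13 after 24 h and 3.49 after 7 days. Its partner S100a9 was at 1.22, 2.41, 3.54 and 4.80 FPKM in the same order. Over the 4 neutrophil genes that passed the filter the medians were 0.18, 0.35 and 0.61. The others that passed, Camp and Ltf, were at 0.16 and -0.02 at 7 days. Below the filter, Elane, Ngp and Retnlg were lower at 7 days than in the control. Mpo was at no more than 0.0113 FPKM in any sample.

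Promoter windows of 300 bases, from 250 before to 50 after the start, were available from RefSeq (GRCm38.p6) for 33 of the 47 keratins in 34 windows. On either strand, the TATA box letters TATAAA were in 17 of the 34 keratin windows and in 13.6% of all 32851 windows. The AP-1 letters TGANTCA were in 2 of 34 (5.88%, and 7.81% of all windows) and the E-box CACGTG in 3 of 34 (8.82%, and 7.15%). Of the 18 keratins with a mean of at least 1 FPKM, 10 were represented, in 11 windows. These held TATAAA in 3 (27.3%), TGANTCA in 2 (18.2%), both of them windows of Krt13, and CACGTG in 2 (18.2%). Such matches describe letters in these windows only.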

How the data were processed

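Per the labels, RNA from whole eyes was made into TruSeq libraries, although the extraction protocol speaks of retinas being removed; no statement on strand is given. The deposited values are FPKM per gene. Per the submitters' processing notes they were made with bcl2fastq 1.8.3, TopHat2 (version 2) and Cuffdiff 2.2.1 on mm9. The sources used here do not state the annotation, or whether the 3 mice were pooled or averaged. The total was 626973 to 680305 FPKM per sample. The groups were the 4 labelled conditions.

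Changes used log2 (FPKM + 1), a mean of at least 1 FPKM and a limit of 1 log2 unit, computed with Python 3.11.15, pandas 2.3.3 and numpy 2.4.6 and checked on simulated data. Depth was approximated from olfactory receptor genes above 0 in a single sample, where 1 fragment was worth 0.0255 to 0.0467 FPKM. Every keratin with a mean of at least 1 FPKM is named. Of each gene list, members past the limit and the most abundant may be named. Other list members named, among them Dsp, Itgb4, Aqp5, Sbsn, Serpinb3a and Des, were chosen after their values were seen. Alternative settings were 0.1 as pseudocount, no filter, a mean of 5 FPKM, 2 rescalings, leaving out genes that share sequence with others and a plain ratio. The members and gene lists were chosen with earlier results of these data known. No coordinates are given because the reference tables are of another build than mm9.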

Additional observations from a re-analysis of the deposited data

How the results depend on the processing

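Krt14 and Krt16 stayed past the limit at 3 h under both rescalings. They were also past it with a pseudocount of 0.1 and by a plain FPKM ratio of 2. For a gene above the control, a smaller or absent pseudocount can only enlarge the change, so neither of these settings could have undone the calls. At 3 h the pseudocount of 0.1 called 0.754% of all genes higher. The plain ratio called 0.686% of the filtered genes above 0 in both samples. Relative to the adhesion list or to the corneal and limbal list, neither Krt14 nor Krt16 was past the limit (0 keratins higher). These relative changes were computed with a pseudocount of 1 only. With a mean of at least 5 FPKM, or without Krt16 and Krt8 (members that share at least 25% of their 50-base windows with another gene, an alternative added after seeing the data, as was the plain ratio), 1 keratin was higher at 3 h, because Krt16 was left out. Under a pseudocount of 0.1 and under the plain ratio, 1 keratin was higher at 24 h (Krt1, at 1.01 and 1.09), 1 at 7 days (Krt16, at 1.58 and 1.78), 1 from 3 h to 24 h (Krt1, at 1.05 and 1.14) and 1 from 24 h to 7 days (Krt16, at 1.39 and 1.56), and 1 was lower from 3 h to 24 h (Krt16, at -1.75 and -1.94). Over all genes, the pseudocount of 0.1 and the plain ratio called 1.01% and 0.913% higher at 24 h, 0.592% and 0.453% at 7 days, 0.697% and 0.587% from 3 h to 24 h and 0.514% and 0.403% from 24 h to 7 days, and 0.697% and 0.602% lower from 3 h to 24 h. Krt1 and Krt16 passed the filter only through samples in which they were high. The median at 24 h lost its sign: it was 0 without a filter, -0.011 with a mean of at least 5 FPKM, -0.00047 after rescaling by the median ratio and -0.031 after rescaling to the same sum without lens, muscle, erythroid and small RNA genes. Without a filter, over 42 mostly low members, the other medians were 0.0052 at 3 h, 0.0071 at 7 days, -0.02 from 3 h to 24 h and 0.03 from 24 h to 7 days, and with a mean of at least 5 FPKM that at 7 days was 0.033. With Krt6a and Krt6b the keratin sum was 3209 FPKM without light, 4026 after 3 h, 3653 after 24 h and 3851 after 7 days. Taking the corneal and limbal list as reference turned no relative median. The alternative that needed protein sequences was not run. No paired analysis was possible because each group has 1 value per gene.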
